A study of Mus musculus with 69 samples.

Results

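Primordial germ cells are the embryonic founders of eggs and sperm, and in the mouse they arise from the epiblast under BMP and Wnt signals. The genes described here are 8 genes used to recognise or specify these cells. Prdm14, Prdm1 (which encodes BLIMP1) and Tfap2c (AP-2γ) encode the transcription factors that set up the germ cell fate, Dppa3 (STELLA) and Ifitm3 (Fragilis) are its classic early markers, and Nanos3, Dnd1 and Dazl encode RNA-binding proteins that keep germ cells alive and, for Dazl, allow their later development. Several of them are not specific to the germ line, since naive mouse embryonic stem cells also express Prdm14, Tfap2c, Dppa3 and others. They were taken by symbol from the count table, where all 8 were found among 55367 symbols, and no library was at 0 for any of them.

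Where these genes lie is given on GRCm38. Prdm14 is at chr1:13113457-13127163, Prdm1 at chr10:44437177-44528501, Dazl at chr17:50279395-50293636, Ifitm3 at chr7:141009586-141010770, Nanos3 at chr8:84173731-84185217 and Dnd1 at chr18:36763671-36766214, all on the minus strand. Tfap2c, at chr2:172549593-172558622, and Dppa3, at chr6:122626410-122630272, are on the plus strand. Dnd1 shares 140 of its 2412 exon bases with Wdr55 on the other strand, so reads from those bases cannot be told apart if strand was not used in counting.

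The counts come from 69 bulk RNA sequencing libraries, 3 replicates of each of 23 groups, with 26722541 to 72981570 counts each (median 53098728). The cells are 3 clones of the E14tg2A mouse embryonic stem (mES) cell line: WT–mCherry, which carries H2B–mCherry, WT–emiRFP, which carries H2B–emiRFP670, and p53KO–emiRFP, a daughter clone of WT–emiRFP with a frameshift in exon 4 of Trp53. All 3 were sequenced as mES cells in serum and LIF (0 h). Gastruloids, which are aggregates of mES cells that form the axes and tissues of the early embryo in culture, were mixed from 150 WT–mCherry and 150 WT–emiRFP cells (WT + WT) or 150 WT–mCherry and 25 p53KO–emiRFP cells (WT + p53KO), received the Wnt pathway activator CHIR between 48 and 72 h, and were sorted by fluorescence at 48, 72, 96, 120 and 144 h. The p53KO genotype is 1 clone, so the loss of p53 and that clone cannot be told apart. Trp53 RNA was lower in the library groups labelled p53KO–emiRFP, with means of 1621 to 2484 normalised counts, than in the WT groups, with 14610.5 to 25497.

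The promoters of Dazl, Nanos3 and Ifitm3 are shown because Dazl and Nanos3 took unlike courses in WT–emiRFP gastruloids and Ifitm3 had the highest level per length. Each line holds the 250 bases before the RefSeq start on GRCm38.p6, read 5′ to 3′ on the minus strand, with CpG dinucleotides in capitals. The intervals are chr17:50293621-50293870 for Dazl, chr8:84176553-84176802 for Nanos3 and chr7:141010745-141010994 for Ifitm3. The Nanos3 window lies inside the Gencode interval of the gene given above, downstream of its 5′ end, so RefSeq and Gencode place this start differently. The Dazl and Ifitm3 windows overlap the Gencode 5′ ends of their genes.
Dazl: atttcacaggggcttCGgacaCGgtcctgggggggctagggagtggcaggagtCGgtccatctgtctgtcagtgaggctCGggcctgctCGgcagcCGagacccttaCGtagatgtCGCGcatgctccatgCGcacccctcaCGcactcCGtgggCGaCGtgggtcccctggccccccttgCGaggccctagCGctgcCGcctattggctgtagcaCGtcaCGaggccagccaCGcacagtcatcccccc
Nanos3: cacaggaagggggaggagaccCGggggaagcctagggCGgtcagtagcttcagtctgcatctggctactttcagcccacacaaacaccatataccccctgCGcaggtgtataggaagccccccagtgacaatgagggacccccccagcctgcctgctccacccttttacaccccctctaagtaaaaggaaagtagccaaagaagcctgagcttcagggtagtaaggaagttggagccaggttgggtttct
Ifitm3: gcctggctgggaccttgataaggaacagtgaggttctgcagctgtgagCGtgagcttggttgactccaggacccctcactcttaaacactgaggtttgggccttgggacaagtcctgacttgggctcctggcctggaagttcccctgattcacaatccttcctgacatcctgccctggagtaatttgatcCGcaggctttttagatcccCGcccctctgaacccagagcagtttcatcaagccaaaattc
The Dazl window held 20 CpGs, more than 81.9% of 32544 promoters of this length, whose median was 6. Nanos3 and Ifitm3 had 3 each, more than 28.8% of promoters. A GC box (GGGCGG, either strand) was found in the Ifitm3 and Nanos3 windows, as in 33.0% of promoters, and an AP-2 core (GCCNNNGGC) in the Nanos3 window, as in 13.8%. An E-box (CACGTG, in 6.04% of promoters) and an E2F core (TCCCGC, in 17%) were in none of these windows. The fourth member with a RefSeq window was Prdm1, with 15 CpGs. Its window, chr10:44458749-44458998, also lies inside the Gencode interval of the gene, downstream of its 5′ end. Prdm14, Tfap2c, Dppa3 and Dnd1 are named only.

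Levels are normalised read counts, meaning counts divided by a median-of-ratios size factor over all 69 libraries. Per kilobase of exon, the mean level over all libraries was highest for Ifitm3 (2494), followed by Dppa3 (1031), Tfap2c (849.6), Dnd1 (225), Prdm14 (182), Dazl (136), Nanos3 (118) and Prdm1 (117). Between the highest and lowest group means, Prdm14 ranged 106-fold, Nanos3 39.2-fold, Tfap2c 27-fold and Dazl 21.3-fold, while Dnd1 ranged 3.74-fold. In bulk libraries, fewer cells expressing a gene and less RNA per cell cannot be told apart, and this holds for every level below.

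**Figure D1:**
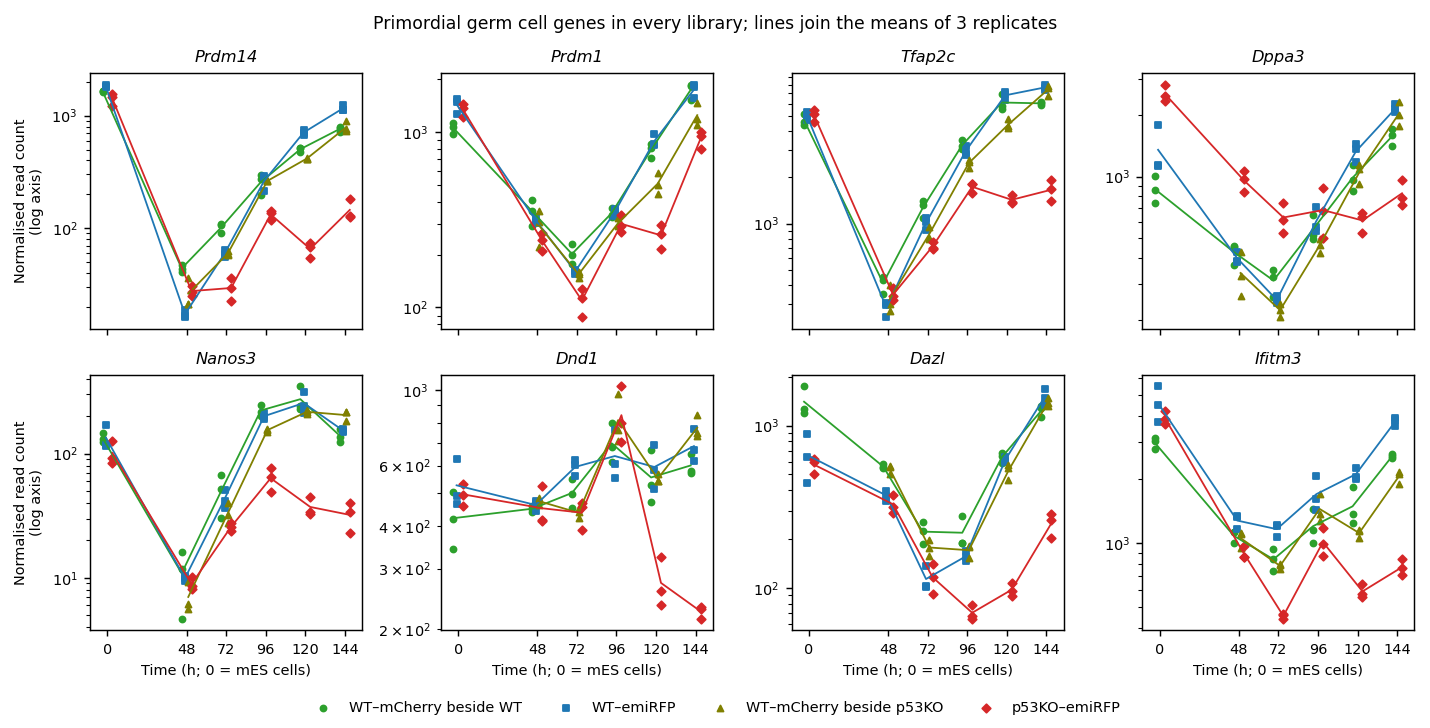
Normalised read counts (log axis) of the 8 genes against time in hours, with 1 point per library and lines through the means of 3 replicates. Most genes dropped between mES cells (0 h) and 48 h and returned in the 3 WT populations from 72 or 96 h, while p53KO–emiRFP lay lowest for all 8 genes at 120 and 144 h.

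The first question was how the genes behaved in WT cells as mES cells became gastruloids. Between 0 and 48 h, 7 of 8 fell, where 37.2% of all tested genes fell. Prdm14, Nanos3 and Tfap2c fell furthest. In WT–emiRFP, Prdm14 went from 1792, 1787 and 1879 in mES cells to 18.8, 16.6 and 16.2 at 48 h, and over the WT groups the log2 change was -6.00 ± 0.09 (SE, adjusted p = 1.18e-49). Tfap2c changed by -3.85 ± 0.07 (SE, adjusted p = 1.13e-45) and Nanos3 by -3.86 ± 0.17 (SE, adjusted p = 1.57e-28), the latter down to 4 to 17 counts per library at 48 h. Prdm1, Ifitm3, Dppa3 and Dazl fell by less, with log2 changes of -1.95, -1.70, -1.49 and -0.99. For Dnd1 the change was -0.04 ± 0.09 (SE, adjusted p = 0.708), which did not pass. For all WT changes with time, the fit treated the sorted WT populations as independent. Some were sorted from the same gastruloids, so these SEs and p values can be too small.

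The genes did not return together. From 48 to 72 h, during the CHIR pulse, Prdm14, Tfap2c and Nanos3 rose in WT cells, with log2 changes of 1.39, 1.62 and 2.16, while Prdm1 (-0.89), Dppa3 (-0.58), Dazl (-1.55) and Ifitm3 (-0.31) kept falling (32.8% of tested genes rose and 34.0% fell). From 72 to 96 h, 7 of 8 rose (30.5% of tested genes), the exception being Dazl at 0.12 ± 0.10 (SE, adjusted p = 0.31). From 96 to 120 h, 6 of 8 rose (28.9%), Dazl by the most, 1.72 ± 0.09 (SE, adjusted p = 6.3e-23), while Dnd1 fell by 0.34 and Ifitm3 was at 0.08 ± 0.07 (SE, adjusted p = 0.338). The group mean of Ifitm3 rose from 1204 to 1494 in WT–mCherry beside WT and from 1705 to 2116 in WT–emiRFP. In WT–mCherry beside p53KO it fell from 1452 to 1119. From 120 to 144 h, 7 of 8 rose (28.7%), and Nanos3 fell, -0.60 ± 0.10 (SE, adjusted p = 7.74e-07). These are means over WT populations that differed for both Nanos3 and Tfap2c: the group mean of Nanos3 went from 275 to 139 in WT–mCherry beside WT and from 256 to 153 in WT–emiRFP but from 218 to 205 in WT–mCherry beside p53KO, and that of Tfap2c from 6118 to 6040.3, 6809 to 7663 and 4408 to 7422. Of these changes, the Nanos3 rise to 120 h did not pass without replicate 2 (adjusted p = 0.163), nor the Dnd1 rise to 144 h without replicate 1 (adjusted p = 0.149).

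Nanos3 and Dazl show the contrast library by library. In WT–emiRFP, the Nanos3 libraries were at 41.5, 36.5 and 51.3 after 72 h, 213, 192 and 197 after 96 h, 212, 312 and 243 after 120 h, and finally 151, 159 and 150.4 after 144 h. For Dazl the 72 h libraries had 101, 102 and 137, the 96 h libraries 169, 154 and 146, those of 120 h 640.5, 593 and 608 and those of 144 h 1335, 1678 and 1488. In WT–emiRFP the Nanos3 libraries at 144 h lay below all of those at 96 h, while every Dazl library at 144 h lay above every one at 120 h. In WT–mCherry beside p53KO the order was the opposite for Nanos3, with 158, 151 and 156 at 96 h below 215, 182 and 216 at 144 h. By 144 h, Tfap2c was above its mES cell range in WT–emiRFP (7965, 7654 and 7372 against 4863, 4707 and 5288), and Prdm14 was below it (1132, 1119 and 1242).

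In p53KO–emiRFP cells 7 of 8 genes fell to 48 h (31.2% of tested genes did), with Prdm14 at -5.68 ± 0.16 (SE, adjusted p = 8.59e-37). From 48 to 72 h Nanos3 (1.52) and Tfap2c (1.04) rose (23.1% of tested genes did) and Dazl (from 291, 317 and 376 to 117, 91.6 and 141), Prdm1 (-1.14), Ifitm3 (-0.98) and Dppa3 (-0.60) fell (23.3%), Dppa3 not without replicate 3 (adjusted p = 0.0547). Over this step Prdm14 was at 0.10 ± 0.22 (SE, adjusted p = 0.75), going from 26.9, 30.6 and 25.2 to 36.4, 29.3 and 22.4. From 72 to 96 h, 6 of 8 rose (22.4% of tested genes), among them Prdm14 (2.17) and Prdm1 (1.46), and Dazl fell by 0.71, a change that did not pass without replicate 3 (adjusted p = 0.061). From 96 to 120 h edgeR and DESeq2 called 0 of the 8 higher (18.9% of tested genes rose by edgeR, and 1 of the 8, Dazl, had an unadjusted p under 0.05) and 5 fell (16.1%): Dnd1 -1.62 ± 0.14 (SE, adjusted p = 2.5e-14), Prdm14 -1.02 ± 0.15 (SE, adjusted p = 7.87e-08), Nanos3 -0.78 ± 0.22 (SE, adjusted p = 0.00385), Ifitm3 -0.77 ± 0.13 (SE, adjusted p = 2.4e-06) and Tfap2c -0.28 ± 0.10 (SE, adjusted p = 0.0293). The Tfap2c fall did not pass without replicate 1 (adjusted p = 0.212) or 2 (0.0689), nor the Nanos3 fall without replicate 3 (0.137). From 120 to 144 h, Prdm1 rose by 1.83 ± 0.13 (SE, adjusted p = 1.67e-16), Dazl by 1.35 and Prdm14 by 1.15. Dppa3 (0.44) and Ifitm3 (0.38) also passed, which makes 5 of 8 (13.0% of tested genes rose), but neither passed without replicate 3 (adjusted p = 0.509 and 0.177), Dppa3 not without replicate 2 (0.0823) or with TMM normalisation (0.0567), and Ifitm3 not without replicate 1 (0.138).

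The second question was what loss of p53 changed at each time, taken as p53KO–emiRFP against its parent clone WT–emiRFP. These cells grew beside WT–mCherry cells in both mixes, but at different seeding numbers, so genotype and mix cannot be told apart after 0 h. All 8 genes were lower in p53KO–emiRFP at 120 h, where 23.7% of tested genes were lower, and all 8 at 144 h, where 32.2% were. None of the calls at these times was lost under any alternative run, leaving out each replicate included.

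Among the 3 transcription factors at 120 h, Prdm14 was 671, 750.1 and 704 in WT–emiRFP and 67.4, 74.3 and 54.2 in p53KO–emiRFP, a log2 difference of -3.43 ± 0.11 (SE, adjusted p = 4.6e-11). Tfap2c was 6317, 7121 and 6989 against 1391, 1362 and 1532, or -2.25 ± 0.09 (SE, adjusted p = 2.89e-10). Prdm1 was 839.6, 852 and 979.8 against 295, 216 and 263, or -1.79 ± 0.13 (SE, adjusted p = 8.16e-08). The groups did not overlap for any of these factors, at a time when 51.0% of tested genes were called in either direction and 23.7% lower.

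Among the RNA-binding proteins, Nanos3 was 212, 312 and 243 in WT–emiRFP and 45, 32.6 and 34.1 in p53KO–emiRFP (-2.78 ± 0.21 SE, adjusted p = 9.96e-08). Dazl was 640.5, 593 and 608 against 96.1, 89.7 and 107 (-2.65 ± 0.11 SE, adjusted p = 4.76e-10). Dnd1, the least variable of the 8 over the groups, was 512, 687 and 584 against 258, 325 and 235 (-1.12 ± 0.15 SE, adjusted p = 2.69e-05). Every p53KO–emiRFP library was below every WT–emiRFP library for these genes too, against the same 23.7% of tested genes called lower.

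The early markers were lower as well. Ifitm3 was 2012, 2274 and 2064 against 574, 646 and 561 at 120 h (-1.83 ± 0.12 SE, adjusted p = 2.94e-08), and Dppa3 1438, 1366 and 1175 against 667, 634 and 533 (-1.12 ± 0.12 SE, adjusted p = 4.01e-06). At 144 h the log2 differences were -3.00 ± 0.13 for Prdm14, -2.59 ± 0.12 for Dazl, -2.28 ± 0.07 for Ifitm3, -2.25 ± 0.18 for Nanos3, -2.21 ± 0.09 for Tfap2c, -1.60 ± 0.10 for Dnd1, -1.37 ± 0.11 for Dppa3 and -0.93 ± 0.12 for Prdm1 (SE).

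**Figure D2:**
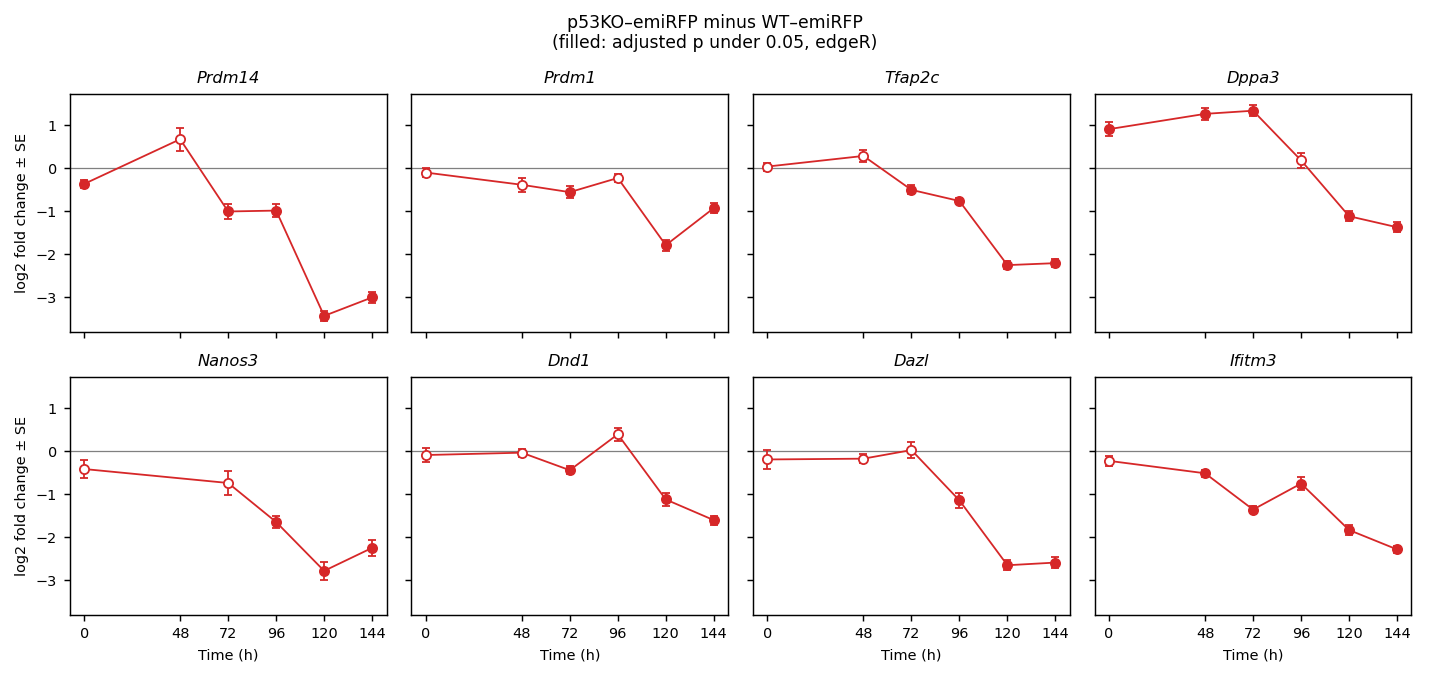
Log2 fold change of p53KO–emiRFP minus WT–emiRFP (mean ± SE, 3 replicates per group, edgeR) against time in hours for each gene, filled where the adjusted p passed. All points at 120 and 144 h are filled and below 0, and Dppa3 is above 0 up to 96 h, filled up to 72 h.

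Before 120 h the direction was mixed. Dppa3 was higher in p53KO–emiRFP in mES cells, with 2798, 2465 and 2343 against 1788, 1140.2 and 1123 (0.91 ± 0.17 SE, adjusted p = 0.00571), at 48 h with 1061, 839.8 and 978 against 431, 382 and 388 (1.26 ± 0.14 SE, adjusted p = 8.23e-06) and at 72 h with 746, 617 and 533 against 261, 242 and 249 (1.34 ± 0.13 SE, adjusted p = 2.42e-06). At 96 h its groups overlapped (0.18 ± 0.17 SE, adjusted p = 0.49). The mES cell difference did not pass without replicate 2 (adjusted p = 0.102) or 3 (0.0741). Prdm14 in mES cells was lower too (-0.37 ± 0.10 SE, adjusted p = 0.041), a call lost without any one of the replicates, with TMM normalisation (adjusted p = 0.0514) and with the compared groups alone (0.0898). These were the 2 calls of 8 in mES cells, where 6.14% of tested genes were called in either direction.

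At 48 h, 2 of 7 tested genes were called (22.1% of all tested genes), Dppa3 higher and Ifitm3 lower (-0.51 ± 0.08 SE, adjusted p = 0.000373), and Nanos3 was too low to be tested. With the replicate number as a block, Prdm1 (-0.40, adjusted p = 0.00116) and Tfap2c (0.28, adjusted p = 0.0457) passed at 48 h as well. At 72 h, 6 of 8 were called (29.1%): besides Dppa3, lower Ifitm3 (-1.36 ± 0.09 SE, adjusted p = 1.62e-08), Prdm14 (-1.01 ± 0.18 SE, adjusted p = 0.000877), Prdm1 (-0.56), Tfap2c (-0.50) and Dnd1 (-0.44). Nanos3 was -0.74 ± 0.28 (SE, adjusted p = 0.0598), and passed with the replicate block (adjusted p = 0.0354). The Prdm1 call was lost without replicate 2 (adjusted p = 0.0758). At 96 h, 5 of 8 were lower (13.8%): Nanos3 (-1.65 ± 0.14 SE, adjusted p = 1.42e-06), Dazl (-1.14 ± 0.17 SE, adjusted p = 0.00018), Prdm14 (-0.99), Tfap2c (-0.76) and Ifitm3 (-0.75), the last not without replicate 1 (adjusted p = 0.097). Dnd1 was 0.39 ± 0.16 (SE, adjusted p = 0.0912) and passed with DESeq2 (adjusted p = 0.0453) and with the replicate block (adjusted p = 3.27e-05), as Prdm1 did with the block (-0.23, adjusted p = 0.0364). With no low-count filter, all 69 libraries fitted or replicate 2 left out, 1 of 8 was also called higher at 96 h.

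The change of the p53KO difference itself was tested. From mES cells to 48 h it changed for 1 of 8, Prdm14 (1.04 ± 0.27 SE, adjusted p = 0.0135, where 5.99% of tested genes were called), and not without replicate 1 (adjusted p = 0.124) or 2 (0.184). From 48 to 120 h it became more negative for each of the 7 genes testable within 48 h, where 18.3% of tested genes did so, by -4.11 on the log2 scale for Prdm14 down to -1.09 for Dnd1. For Dppa3 this difference was -2.38 ± 0.23 (SE, adjusted p = 1.85e-12), from a positive to a negative value. From 120 to 144 h it changed for 1 of 8, Prdm1 (0.86 ± 0.18 SE, adjusted p = 0.000276, where 16.9% of tested genes were called), whose p53KO–emiRFP libraries had gone from 295, 216 and 263 to 947, 1001 and 806.

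The third question was whether WT–mCherry cells had other levels beside p53KO–emiRFP than beside WT–emiRFP cells. Differences were under 1 on the log2 scale at every time, and 12 of 39 tests passed, or 21 with the replicate number as a block. At 48 h edgeR called 0 of 7 (0.0736% of tested genes) and DESeq2 0, while 3 had an unadjusted p under 0.05, all lower (Prdm14, Tfap2c and Dppa3), and these 3 passed with the replicate block (-0.77, -0.35 and -0.35, adjusted p = 0.048, 0.0406 and 0.0169). At 72 h Tfap2c (-0.56 ± 0.10 SE, adjusted p = 0.0245) and Prdm14 (-0.77 ± 0.16 SE, adjusted p = 0.0479) were lower (0.559% of tested genes were called), but neither passed with only the compared groups fitted (adjusted p = 0.0511 and 0.0679) or with any 1 replicate left out (0.0603 to 0.608 and 0.0806 to 0.682). At 96 h Tfap2c (-0.39 ± 0.07 SE, adjusted p = 0.0145) and Nanos3 (-0.52 ± 0.13 SE, adjusted p = 0.0425) were lower (3.92%), Tfap2c not without replicate 1 (adjusted p = 0.36) or 2 (0.103) and Nanos3 not without any 1 replicate (0.0821 to 0.448), with only the compared groups (0.0613) or with all 69 libraries fitted (0.0907). The block added higher Dnd1 (0.22, adjusted p = 0.0156) and Ifitm3 (0.27, adjusted p = 0.000144) and lower Dazl (-0.34, adjusted p = 0.0307) at 96 h. At 120 h Prdm1 (-0.64 ± 0.12 SE, adjusted p = 0.00858) and Tfap2c (-0.47 ± 0.09 SE, adjusted p = 0.0058) were lower (5.94%), neither without replicate 1 (adjusted p = 0.11 and 0.0888) and Tfap2c not without replicate 2 (0.0517). Here the block added lower Prdm14 (-0.27, adjusted p = 0.018), Dazl (-0.28, adjusted p = 0.0274) and Ifitm3 (-0.40, adjusted p = 0.00109).

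At 144 h, where 25.6% of tested genes were called, the direction was split. Prdm1 (-0.48 ± 0.12 SE, adjusted p = 0.00945) and Ifitm3 (-0.32 ± 0.07 SE, adjusted p = 0.00473) were lower, and Nanos3 (0.55 ± 0.15 SE, adjusted p = 0.0181), Dnd1 (0.37 ± 0.10 SE, adjusted p = 0.0144), Dppa3 (0.36 ± 0.11 SE, adjusted p = 0.0283) and Tfap2c (0.30 ± 0.09 SE, adjusted p = 0.0249) were higher. Tfap2c had thus been 4291, 4159 and 4774 beside p53KO against 5532, 6980.3 and 5842 beside WT at 120 h, and was 7866, 6776 and 7624 against 6207, 6055 and 5858 at 144 h. Whether the difference changed with time was not tested. With all 69 libraries fitted, Dppa3 did not pass at 144 h (adjusted p = 0.0773). Without replicate 1, 2 or 3, the calls at 144 h fell from 6 to 1, 3 and 2. Of the 39 tests, 1 passed without replicate 1, 4 without replicate 2 and 5 without replicate 3.

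**Figure D3:**
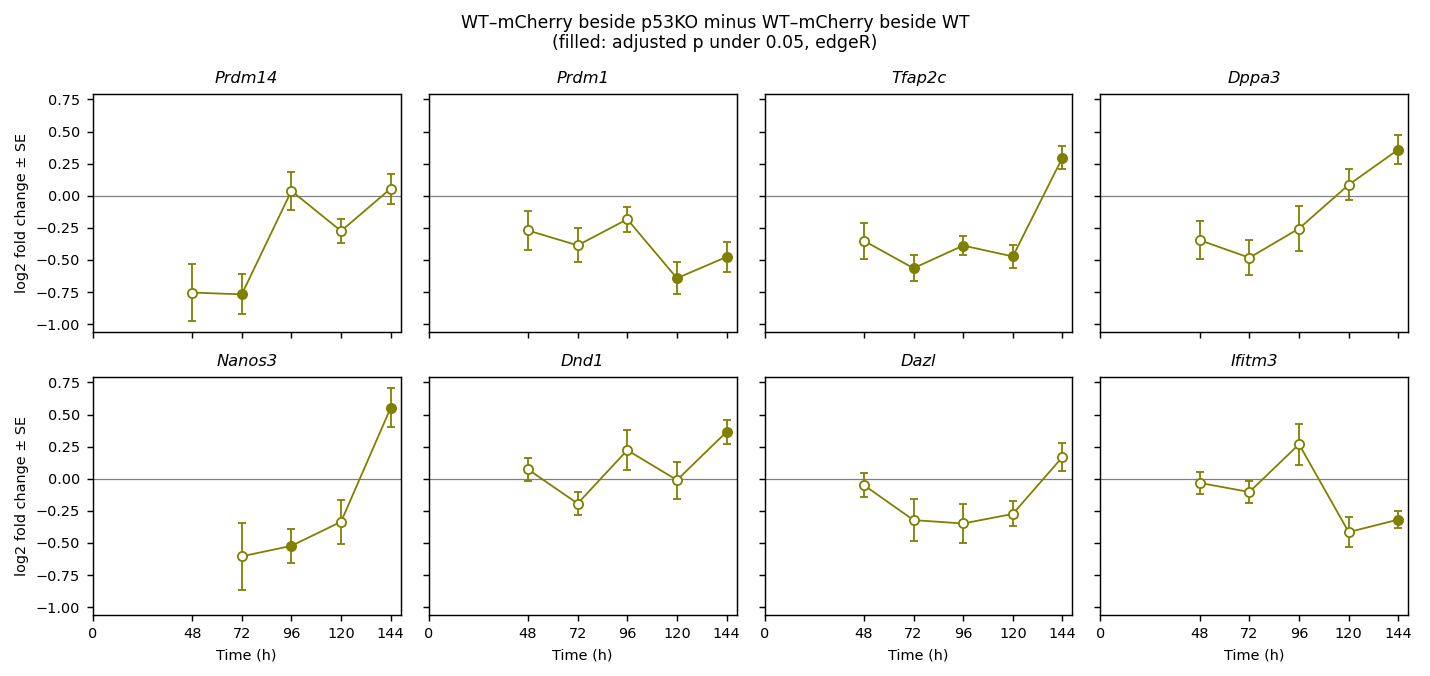
Log2 fold change of WT–mCherry beside p53KO minus beside WT (mean ± SE, 3 replicates per group, edgeR) against time in hours for each gene, filled where the adjusted p passed. The values lie between -0.77 and 0.55, and Nanos3 has no value at 48 h.

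Genes that mark the emiRFP clones were also measured in the sorted WT–mCherry libraries. H2bc14, H2bc7 and H2bc21, histone genes high in the emiRFP clones and listed with that known, summed to group means of 8223 to 15365 normalised counts there and of 40.9 to 764 in WT–mCherry. In WT–mCherry at 144 h the 3 libraries ranged from 211 to 1327 beside p53KO and from 55.1 to 248 beside WT. At 120 h they were at 383 to 741 beside p53KO and 154 to 228 beside WT. Sums of 3 further lists did not overlap between these WT–mCherry libraries at 120 h, where 5.94% of tested genes were called. The haematoendothelial sum was 573 to 793 beside p53KO and 1342 to 1374 beside WT, and the naive sum 46345 to 50883 and 53601 to 66940.2. The primed sum was 17964 to 19505 and 19526 to 21979, while the other 7 lists overlapped between the neighbours. The naive sum also lay lower beside p53KO without overlap at 48, 72 and 96 h, and the haematoendothelial sum at 72 and 144 h. Other sums did not overlap either, in both directions. Beside p53KO the primed sum was higher at 48 h and lower at 144 h. The BMP and Wnt induction sum was higher at 96 h and lower at 144 h. That of other primordial germ cell genes was lower at 96 h and higher at 144 h. The sum of paralogues was lower at 72 and 144 h. Between neighbours, 0.0736%, 0.559%, 3.92% and 25.6% of tested genes were called at 48, 72, 96 and 144 h. The part of these cells and lists in the differences between neighbours was not tested.

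The 2 WT clones also differed. WT–mCherry against WT–emiRFP gave 15 calls in 47 tests, against 5 without replicate 2 and 11 without replicate 1 or without replicate 3. In mES cells Dazl was higher in WT–mCherry (1202, 1257 and 1747 against 444, 636 and 893, 1.09 ± 0.21 SE, adjusted p = 0.00723), and Dppa3 (-0.64), Ifitm3 (-0.62) and Prdm1 (-0.45) were lower (11.1% of tested genes called). Without replicate 2 none of the calls at 0, 48 or 72 h passed (adjusted p from 0.0512 for Dazl at 48 h to 0.303 for Prdm1 at 0 h). At 48 h Prdm14 (1.35 ± 0.24 SE, adjusted p = 0.00245), Dazl (0.59) and Tfap2c (0.53) were higher (8.90%), and at 72 h Prdm14 (0.78) and Dazl (0.97), with Ifitm3 lower (-0.47, 7.64%). At 96 h edgeR and DESeq2 called 0 of 8 (2.15% of tested genes by edgeR), and 2, Dazl and Ifitm3, had an unadjusted p under 0.05. Prdm14 was lower in WT–mCherry at 120 h (-0.49 ± 0.09 SE, adjusted p = 0.0222, 1.22% called), a call lost without replicate 1 (adjusted p = 0.525) or 3 (0.185) and with only the compared groups fitted (0.0632), and at 144 h (-0.61 ± 0.12 SE, adjusted p = 0.00213), when Tfap2c, Dppa3 and Ifitm3 were lower too (23.8%), Tfap2c not without replicate 2 (adjusted p = 0.0834) and Dppa3 not without replicate 1 (0.0542). Tfap2c at 48 h and Prdm14 and Dazl at 72 h were lost without replicate 1 too (adjusted p = 0.214, 0.143 and 0.194), Prdm1 and Dppa3 at 0 h (0.0913 and 0.0795) and Tfap2c at 48 h (0.113) without replicate 3, and Dppa3 at 0 h with only the compared groups (0.0728). The block added lower Ifitm3 at 48, 96 and 120 h (-0.24, -0.50 and -0.52, adjusted p = 0.00167, 7.93e-08 and 0.000318) and lower Dppa3 at 120 h (-0.43, adjusted p = 0.00667). It also added higher Tfap2c at 72 h (0.32, adjusted p = 0.00853), and Dazl higher at 96 h (0.47, adjusted p = 0.00529) and lower at 144 h (-0.27, adjusted p = 0.0273). The Prdm14 difference between the WT clones at 120 h was thus -0.49, and that between p53KO–emiRFP and WT–emiRFP -3.43. This order did not hold for every gene and time. The p53KO difference was not called where the WT clones differed by 1.09 (Dazl, 0 h), 1.35 (Prdm14, 48 h) and 0.97 (Dazl, 72 h).

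Other lists were read at 120 h in p53KO–emiRFP against WT–emiRFP, as counts and medians beside the median over all tested genes, 0.05. Of all tested genes, 27.3% were higher and 23.7% lower, and the lists' counts are to be read against these shares. The 8 genes had a median log2 difference of -2.04. Of 16 other primordial germ cell genes, 10 were lower and 5 higher (median -0.67). The largest were the homeobox genes Rhox6 (-3.26) and Rhox9 (-3.10) and Tcl1 (-3.07). Of 16 tested later germline and meiotic genes, 13 were lower (median -1.37), led by Hormad1 of the meiotic chromosome axis (-3.10), Slc25a31 (-2.26) and Fkbp6 (-2.14). Of 12 genes of BMP and Wnt induction, 7 were higher and 4 lower (median 0.27), with T, the mesoderm factor brachyury, at 2.79, Eomes at -2.73 and Wnt3 at -1.38. Of 6 tested paralogues, 4 were lower, with Ifitm7 at -1.97, Tfap2a at -0.95 and Boll at -0.95.

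All 10 naive pluripotency genes were lower at 120 h (median -2.38), among them Nr0b1 (-2.95), Nanog (-2.81) and Tfcp2l1 (-2.65). Their summed level was 67818 to 79246 in the WT–emiRFP libraries and 13190.2 to 14220.2 in p53KO–emiRFP. Several of the 8 genes are expressed in naive cells too, and the part of naive-like cells in their difference was not tested. Of 6 primed pluripotency genes, 1 was higher and 2 lower, with Fgf5 at -1.62, Otx2 at -1.49 and Sox3 at 0.42 (3 of 6 called, beside 51.0% of tested genes in either direction). The primed sum was higher in p53KO–emiRFP, at 22290.9 to 23238.5, than in WT–emiRFP, at 19393.5 to 21620.8.

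Lists of other tissues were counted against the same shares. Of 7 haematoendothelial genes 5 were lower, led by the receptor genes Tek (-3.39) and Kdr (-2.98) and the factor Tal1 (-1.81), and their sum was 1895 to 2263 in WT–emiRFP and 332 to 546 in p53KO–emiRFP. Of 6 endoderm genes 3 were lower and 1 higher (Sox17 -1.24, Cldn4 -1.18, Cer1 1.01), and of 6 surface ectoderm genes 3 were lower (Trp63 -1.87, Grhl2 -1.22, and Tfap2a, which the paralogues also hold). The surface ectoderm sum overlapped between the groups, at 5932 to 7452 in WT–emiRFP and 5748 to 6124 in p53KO–emiRFP. Of 7 tested extraembryonic genes 4 were lower, with Cubn at -3.96 and Elf5 at -1.42. Ttr, the third, had 0 counts in all 3 p53KO–emiRFP libraries, which allows up to 3 counts each, so no fold is given. The part of these cell types in the results was not tested.

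**Figure D4:**
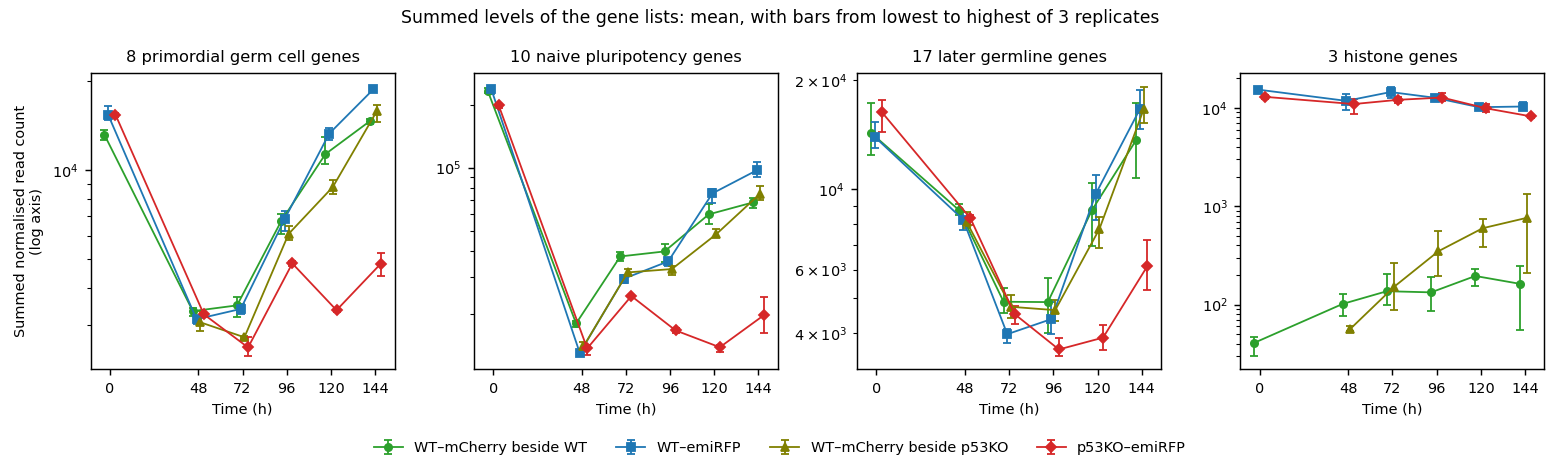
Summed normalised read counts (log axis) of 4 gene lists against time in hours, as the mean with bars from the lowest to the highest of 3 replicates. The means of the primordial germ cell and naive lists are lower in p53KO–emiRFP than in the 3 WT populations at 72 h and each later time, and the histone genes separate the emiRFP clones from WT–mCherry.

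Likeness over the 23 group means was described by Pearson's r of log2 normalised counts plus 1, with no test, since groups share clones, times and experiments. Among the 8 genes, Prdm14 and Tfap2c (r = 0.947) and Tfap2c and Nanos3 (0.946) were most alike, Nanos3 and Dazl reached 0.291, and Dnd1 and Dazl 0.117. Among 14078 genes with a mean of at least 50, the gene most like Prdm14 was Tet2 (0.977), which encodes a DNA demethylating enzyme and is on the naive list, followed by Ulk1 (0.973) and Zfp607b (0.973). Dazl was most like Pramef12 (0.978), Sohlh2 (0.978), a germ cell transcription factor, and Fat2 (0.976). Nanos3 was most like Alpl (0.962), the alkaline phosphatase long used to stain germ cells, Slc6a7 (0.957) and Tfap2c.

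For Tfap2c the nearest were Mobp (0.974), Brpf3 (0.962) and Halr1 (0.962), and for Prdm1 Rgs22 (0.961), Itgb3 (0.956) and Ero1lb (0.955). Dppa3 was most like Fam228b (0.951), Zdhhc18 (0.938) and Lipe (0.936), and Ifitm3 most like Dynlt1a (0.951), Lasp1 (0.940) and Myof (0.940). Dnd1 had the lowest values, with Ptpn6 (0.833), Castor1 (0.820) and Scarf1 (0.818). With the summed lists, r was 0.914 between Prdm14 and the naive genes, and for Dazl 0.948 with the later germline genes, 0.905 with the haematoendothelial and 0.841 with the extraembryonic genes. With the primed genes, r was negative for all 8 genes, from -0.911 (Tfap2c) and -0.896 (Nanos3) to -0.144 (Dazl). With the list of other primordial germ cell genes, r was 0.051 (Nanos3) to 0.556 (Ifitm3) for the 8 genes. Each list enters as a sum of normalised counts, so its abundant genes weigh most.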

How the data were processed

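Bulk polyA RNA sequencing of 69 libraries was deposited as raw counts per gene symbol, in a table of 55367 symbols whose columns were all used. The authors trimmed reads with Trim Galore 0.6.7, aligned them to GRCm38 with STAR 2.7.11b and counted uniquely mapped reads. Which strand column was counted is not given in the sources used here. From these counts, a median-of-ratios size factor was computed for each library from all 69. Within a time point, edgeR 4.0.16 (R 4.3.3) fitted the 12 libraries, or 9 for mES cells, after filterByExpr and applied its quasi-likelihood test. Changes with time, where WT cells are the mean of all WT groups, used 1 fit of all 69. All p values are edgeR's, adjusted by Benjamini-Hochberg over all tested genes (threshold 0.05).

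The genes, lists and named-gene rule were chosen with earlier results of these data known. The rule was to name all 8 genes in every comparison, but the text does not name each of them every time. It also names up to 3 genes per other list with the largest change past the threshold at 120 h, and the 3 most alike per gene. Alternatives were TMM normalisation, no low-count filter, replicate blocks, DESeq2 1.42.0, other sets of groups and each replicate left out. The paper states that the replicates are independent experiments, and no label ties a number to one. Same-numbered libraries deviated together from their group means (mean r across 14078 genes 0.195 to 0.422 per time point). All pairs exceeded 0.1 at 48, 96 and 144 h but not at 0 h (lowest r 0.0694), 72 h (lowest 0.0377) or 120 h (lowest 0.0717). When a library was set against the replicates of another group, its own number was closest in 191 of 198 cases. The main fits did not use the number. Wherever blocking on the number changed a call, the blocked value is given. At most 6.31% of genes had equal counts in 2 replicates. Fits were also run on simulated data, and the outcome is not given here. Promoters came from a set of RefSeq windows that held 4 of the 8 genes, and 96.4% of symbols were in the Gencode annotation used.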

Additional observations from a re-analysis of the deposited data

Results flagged for a closer look

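The difference between p53KO–emiRFP and WT–emiRFP changed with time by its own test (edgeR, all 69 libraries in a fit). From mES cells to 48 h this held for Prdm14, by 1.04 ± 0.27 (SE, adjusted p = 0.0135), where 5.99% of tested genes were called. That call was lost without replicate 1 (adjusted p = 0.124) or 2 (0.184). From 48 to 120 h the difference fell for each of the 7 genes testable within 48 h, where 18.3% of tested genes were called lower. The changes were -4.11 ± 0.29 (SE, adjusted p = 1.78e-17) for Prdm14, -2.54 ± 0.17 (SE, adjusted p = 1.05e-18) for Tfap2c, -2.48 ± 0.24 (SE, adjusted p = 1.16e-12) for Dazl and -2.38 ± 0.23 (SE, adjusted p = 1.85e-12) for Dppa3. They were -1.40 ± 0.19 (SE, adjusted p = 2.98e-08) for Prdm1, -1.32 ± 0.18 (SE, adjusted p = 2.39e-08) for Ifitm3 and -1.09 ± 0.20 (SE, adjusted p = 1.09e-05) for Dnd1. The fitted Nanos3 value, -2.63 ± 0.49 (SE, adjusted p = 1.33e-05), rests on 7 to 9 counts per library in both groups at 48 h, too few for a test there, and is not counted. From 120 to 144 h the difference changed for Prdm1 by 0.86 ± 0.18 (SE, adjusted p = 0.000276). Single libraries were not examined for outliers, since groups of 3 are too small.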

How the results depend on the processing

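The number of passing tests of the 8 genes stayed within 1.5 times of the reported one under every alternative run for p53KO–emiRFP against WT–emiRFP (31 of 47), for both time courses (36 and 30 of 40) and for the change of the p53KO difference (10 of 24, the low-count Nanos3 change from 48 h included). For WT–mCherry beside p53KO against beside WT it was 12 of 39, 21 with the replicate number as a block, and 1 to 5 with a replicate left out. For WT–mCherry against WT–emiRFP it was 15 of 47, and 5 to 11 with a replicate left out. Leaving out replicate 1, 2 or 3 ended 22, 26 and 18 calls, and every other alternative at most 6. The replicate block added 22 calls and ended 0. All but 1 are given beside the results, and the other is the change of the p53KO difference of Ifitm3 from 120 to 144 h (-0.45, adjusted p = 0.0244).

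Signs changed only for differences that did not pass. On the log2 scale these were, with TMM, Dazl in p53KO–emiRFP against WT–emiRFP at 72 h (-0.001355) and in the change of that difference from 0 to 48 h (-0.004234); with DESeq2, Nanos3 between the WT clones at 0 h (0.007032); and with the block, Dnd1 between neighbours at 120 h (0.0007482). With a replicate left out, p53KO–emiRFP against WT–emiRFP ranged from -0.009159 to 0.09088 for Tfap2c, -0.1399 to 0.001103 for Dnd1 and -0.3268 to 0.03017 for Dazl at 0 h, -0.1332 to 0.02856 for Dnd1 at 48 h and -0.05225 to 0.1074 for Dazl at 72 h. The WT clones ranged from -0.09073 to 0.1348 for Nanos3 at 0 h, -0.08383 to 0.6291 for Nanos3 at 72 h, -0.1193 to 0.01806 for Prdm1 at 96 h, -0.01255 to 0.1051 for Dazl at 120 h and -0.01711 to 0.008563 for Prdm1 at 144 h. Neighbours ranged from -0.132 to 0.06777 for Ifitm3 at 48 h, -0.1124 to 0.1412 for Prdm14 at 96 h, -0.03381 to 0.2873 for Dppa3 and -0.1069 to 0.1221 for Dnd1 at 120 h, and -0.01135 to 0.1308 for Prdm14 at 144 h. Dnd1 in WT cells from 0 to 48 h ranged from -0.1197 to 0.1214, and in p53KO–emiRFP from 48 to 72 h Prdm14 ranged from -0.07988 to 0.1818 and Dnd1 from -0.1247 to 0.0285. The change of the p53KO difference ranged from -0.01146 to 0.1722 for Dnd1 and -0.2685 to 0.2296 for Dazl from 0 to 48 h, and from -0.05942 to 0.2178 for Tfap2c from 120 to 144 h. The cause of these changes was not tested. Counts were too low for a test of Nanos3 within 48 h.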
